A study of Arabidopsis thaliana with 2 samples.

Results

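The type-A response regulators of *Arabidopsis thaliana* are a family of 10 genes, ARR3 to ARR9 and ARR15 to ARR17, whose proteins damp the response to the plant hormone cytokinin. They were taken by their locus identifiers, and they are 10 of the 27444 protein-coding genes on the 5 nuclear chromosomes. For each gene, the summits of MBD9 ChIP-seq peaks were placed in 3 windows, which were the 1 kb upstream of the transcription start site (TSS), the gene itself, and the 500 bp beyond its 3′ end. The genes were then set side by side as the 5 paralogue pairs ARR3 and ARR4, ARR5 and ARR6, ARR7 and ARR15, ARR8 and ARR9, and ARR16 and ARR17.

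MBD9 carries a methyl-CpG-binding domain and associates with the SWR1 remodeling complex, by which the variant histone H2A.Z is put into nucleosomes, and the experiment asked where in chromatin MBD9 sits. The groups were a T4 transgenic line with MBD9-3xFLAG in the *mbd9-3* mutant and untagged wild-type plants, both of the Col-0 ecotype and both sampled 13 days after germination. The labels call the material seedlings and, under developmental stage, shoots. The tagged protein was expressed from the gene's own promoter, in a single transgenic line. Chromatin of both groups was precipitated with the same FLAG antibody, and 1 library per group was sequenced, so none of the values was checked in a replicate and no test between genes was possible. The deposited list holds 13993 summits in 10348 peaks called in the MBD9-3xFLAG library over the wild-type library. Each summit is a single base with a score, −log10 of its q value, which had a median of 10.1 and ran from 2.0 to 197. The score orders summits within this list. It is not a measure of how much MBD9 was bound, and the list gives no read depth, so a gene without a summit is a gene at which none was called at this unknown depth.

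Cytokinin is sensed by histidine kinase receptors of the AHK family, which pass a phosphoryl group to the AHP phosphotransfer proteins and on to the response regulators in the nucleus. The type-B regulators are DNA-binding proteins that switch on cytokinin-responsive genes. Among the fastest of these are the type-A genes, whose proteins have a receiver domain but no DNA-binding domain and act as negative feedback on the pathway. ARR7 and ARR15 are known for their part in the shoot apical meristem, where the homeodomain protein WUSCHEL represses them, and ARR4 for binding the red light receptor phytochrome B. ARR3 and ARR4 also affect the circadian period, the promoters of ARR5 and ARR6 are widely used as cytokinin reporters, and ARR16 and ARR17 take part in the bending of roots towards water.

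MBD9 summits lay upstream of 5 of the 10 type-A genes, which were ARR4, ARR7, ARR8, ARR9 and ARR17, whereas 17.3% of all protein-coding genes had an upstream summit. The highest-scoring summits of the family lay upstream of ARR8, ARR7 and ARR4, and no summit was called in any window of ARR3 or ARR15. Of the 5 pairs, 1 had an upstream summit at both genes, 3 had it at 1 gene only and 1 had it at neither. The DNA around the upstream summits is shown first, because 3 of the 5 pairs differed in the upstream window. Each sequence is 101 bases of the TAIR10.1 reference (RefSeq), from 50 bp before to 50 bp after the summit, written 5′ to 3′ on the strand of the gene. Capitals mark 5-base words to which type-B regulators bind. The first was AGATT, which reads AATCT where it lies on the opposite strand. The second was AGATC, which then reads GATCT, and the third was GGATT, which then reads AATCC. The sequence around the ARR8 summit spans chr2:17221251-17221351 (plus strand), and that around the ARR7 summit nearest the TSS spans chr1:6579355-6579455 (minus strand). The ARR4 sequence spans chr1:3444683-3444783 (minus strand). That around the higher-scoring upstream summit of ARR9 spans chr3:21108827-21108927 (plus strand), and the ARR17 sequence spans chr3:20904246-20904346 (plus strand).
ARR8, 539 bp upstream: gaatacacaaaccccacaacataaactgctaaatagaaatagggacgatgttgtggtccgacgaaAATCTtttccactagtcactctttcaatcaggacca
ARR7, 91 bp upstream: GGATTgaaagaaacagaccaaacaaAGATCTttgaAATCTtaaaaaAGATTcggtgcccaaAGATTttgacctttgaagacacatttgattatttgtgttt
ARR4, 373 bp upstream: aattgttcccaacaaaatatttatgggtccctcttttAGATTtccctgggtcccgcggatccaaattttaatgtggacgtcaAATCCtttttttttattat
ARR9, 182 bp upstream: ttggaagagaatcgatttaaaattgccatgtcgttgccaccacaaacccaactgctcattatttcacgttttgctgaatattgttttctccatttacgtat
ARR17, 968 bp upstream: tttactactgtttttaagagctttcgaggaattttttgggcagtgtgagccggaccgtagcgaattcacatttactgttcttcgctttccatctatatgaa

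The ARR7 window held 3 copies of AGATT, 2 of AGATC, which overlap each other as the palindrome AGATCT, and 1 of GGATT. ARR8 had 1 copy of AGATT, whereas ARR4 had 1 of AGATT and 1 of GGATT. The window 182 bp upstream of ARR9 and that of ARR17 had none of the 3 words. The family has 7 upstream summits in all, of which the remaining pair lay 784 bp upstream of ARR9, with 2 copies of GGATT, and 625 bp upstream of ARR7, with no copy of any word. Over the 7 summits, AGATT was present at 3 (42.9%), against 26.1% of the 5099 summits upstream of any protein-coding gene. GGATT was also present at 3, against 16.3% of all upstream summits, and AGATC at 1, against 12.3%. With 7 summits, each of these shares moves by many percentage points for 1 summit more or fewer. The longer type-B word AGATACG was at 0 of the 7 summits and at 0.726% of all upstream summits. The G-box CACGTG, a core bound by bZIP and bHLH factors, was at 0 of the 7 and at 11.0% of all, and the related word ACGTGG was at 0 and 10.8%. All words were searched on both strands, AGATC and its reverse complement can overlap, as can CACGTG and ACGTGG, and a match shows only that the letters are there.

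Counted over the whole 1 kb upstream, the type-B words occurred in genes with and without an upstream summit. AGATT occurred 5 times upstream of ARR4, 6 of ARR7, 5 of ARR8, 4 of ARR9 and 4 of ARR17. Among the genes with no upstream summit, there were 7 copies upstream of ARR3, 6 of ARR5, 5 of ARR6, 7 of ARR15 and 6 of ARR16. The counts of the 2 sets overlap. GGATT occurred 3 times upstream of ARR4, 2 of ARR7, 4 of ARR8, 5 of ARR9 and 2 of ARR17, compared with 3 of ARR3, 0 of ARR5, 1 of ARR6, 0 of ARR15 and 3 of ARR16, so its counts were mostly higher at the genes with an upstream summit but also overlapped. AGATC occurred 0 to 4 times in the genes with an upstream summit and 0 to 7 times in those without. For AGATT, the family median of 5.5 copies compares with 4 over 27443 protein-coding genes, 98.3% of which have at least 1 copy. For GGATT, the family median of 2.5 compares with 2 over the same genes, 86.1% of which have a copy. Whether copies differ between all genes with and without an upstream summit was not tested. GC content within 50 bp of the 7 upstream summits had a median of 36.6% and ran from 31.7% to 40.6%, and the median over all upstream summits was 37.6%.

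**Figure D1:**
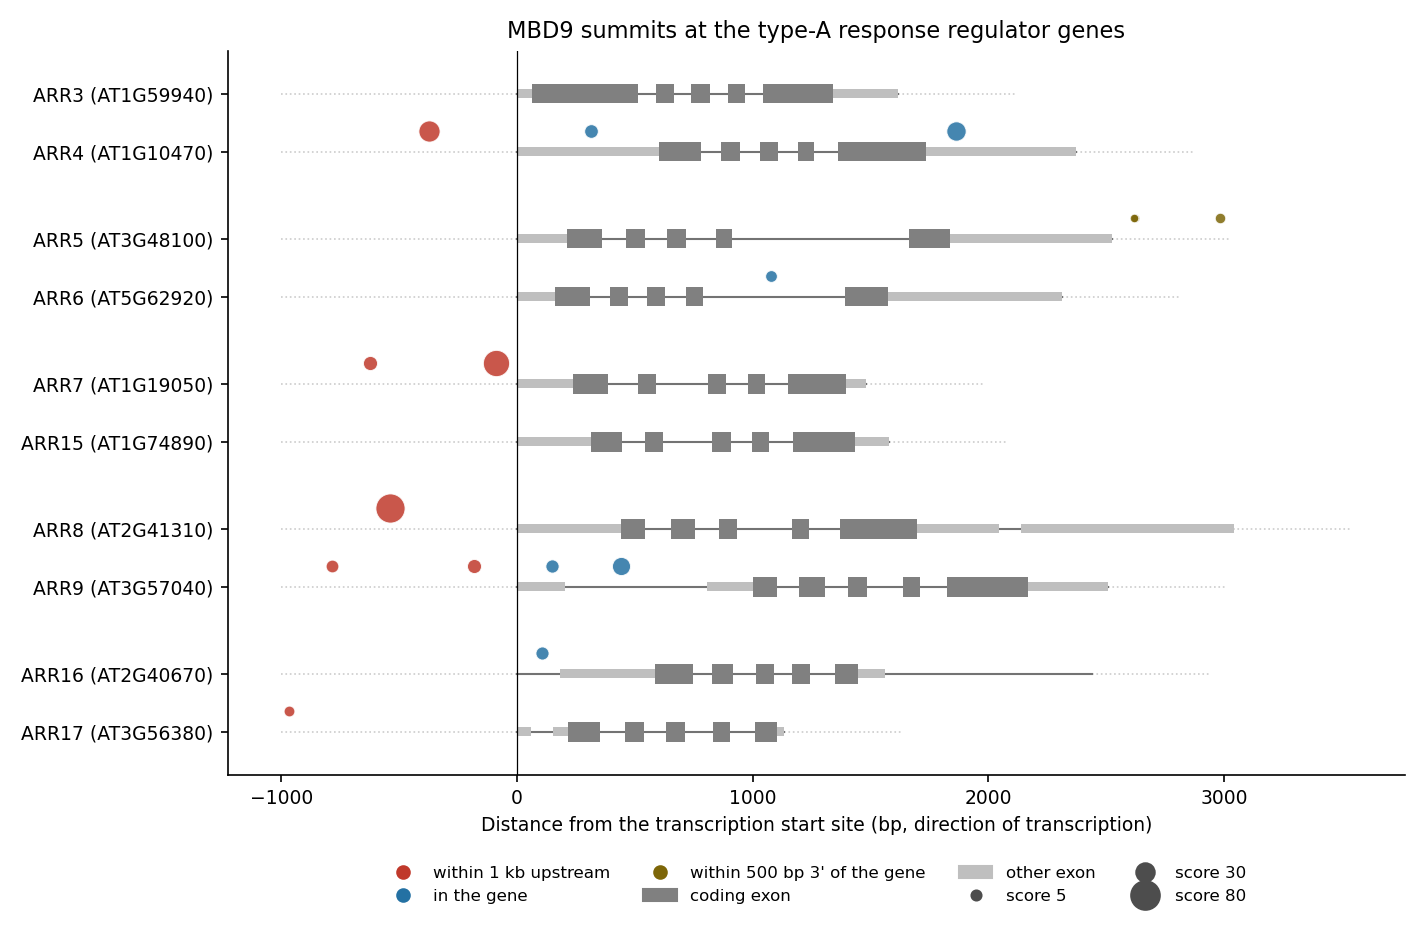
Position of every MBD9 summit in the 3 windows of the 10 type-A genes, with paralogues in adjacent rows, each gene running to the right from its TSS at 0 (x axis in bp). Points are summits, coloured by window and sized by score, boxes are exons of the RefSeq transcript with the longest coding sequence, and dotted lines are the upstream and 3′ windows. The 2 summits 99 and 95 bp beyond ARR5 overlap in the drawing, ARR3 and ARR15 have no point, and no summit falls on a coding exon.

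ARR8 (AT2G41310, chr2:17221840-17224880, plus strand, named RR3 in RefSeq) carried the highest-scoring summit of the family. The summit at 17221301 scored 83.9, ranked 179 of 13993 in the list, and was alone in its peak, 539 bp upstream of the TSS and 979 bp upstream of the start codon. Among the 4752 protein-coding genes with an upstream summit it ranked 79, with 98.3% of them lower. Its paralogue ARR9 (AT3G57040, chr3:21109059-21111567, plus strand) had lower scores but more summits, 4 in its windows, 2 of them upstream. The summit at 21108877, 182 bp upstream, scored 15.4, and that at 21108275, 784 bp upstream and in a peak of its own, scored 11.6. Inside the ARR9 gene, the summits at 21109206 and 21109502 scored 13.0 and 29.1, at 147 and 443 bp from the TSS. The higher of them lies in the first intron of the longer transcript and in the 5′ UTR of the shorter, 88 bp from the start of the shorter one, so at ARR9 the highest score fell inside the annotated gene and at ARR8 it fell outside. By its best upstream score, ARR9 ranked 1991 of the 4752 genes. Summits of ARR9 also touch short noncoding genes on the opposite strand. The summit at 784 bp lies in the lncRNA AT3G08815 (chr3:21108035-21108351), 76 bp from its start, and that at 147 bp lies in the lncRNA AT3G08825 (chr3:21109074-21109304). The remaining summits lie near the same genes, that at 182 bp being 526 bp upstream of AT3G08815 and that with the score of 29.1 being 198 bp upstream of AT3G08825, so none of the 4 summits can be assigned to ARR9 alone.

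Beyond the 1 kb limit, the ARR8 and ARR9 loci held further summits that the windows leave out. Upstream of ARR8 they lay at 1404 bp (score 19.5) and 2764 bp (4.87), and 1 lay 510 bp past the 3′ end, just outside the 500 bp window (5.46). Upstream of ARR9 they lay at 1489 bp (7.44) and 1897 bp (4.84). The nearest upstream protein-coding genes are 5547 bp from ARR8 and 5339 bp from ARR9.

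ARR7 (AT1G19050, chr1:6577833-6579314, minus strand) had the upstream summit closest to the 5′ end of a gene in the family. By the starts of single transcripts, a summit lies nearer at ARR16 (77 bp upstream) and as near at ARR4 (91 bp). The ARR7 summit stood at 6579405, 91 bp upstream of the TSS and 327 bp upstream of the start codon. It scored 67.0, with 97.4% of all summits lower. The same peak had another summit 625 bp upstream, which scored 15.6. By its best upstream score ARR7 ranked 150 of 4752 genes. In ARR15 (AT1G74890, chr1:28131447-28133025, minus strand), the other gene of this pair, no summit was called in any window, and the closest in the list lay 5776 bp from the gene and scored 4.04. The coding sequences of ARR7 and ARR15 are both 621 bp and 79.0% identical, and the longest identical run between their 1 kb upstream sequences is 13 bp.

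The pair ARR4 and ARR3 was parted in the same way. ARR4 (AT1G10470, chr1:3441988-3444360, minus strand) had 3 summits, the highest of which, at 3444733, scored 41.8 and lay 373 bp upstream. A further summit of that peak, with a score of 14.2, lay 312 bp downstream of the annotated TSS, in the 5′ UTR of 1 of the 3 transcripts and 91 bp upstream of the start of the other 2. The remaining summit, at 3442499 in a separate peak, scored 33.9 and fell in the 3′ UTR of all 3 transcripts, 511 bp before the end of the gene. No other summit of the family fell in a 3′ UTR. The 101 bp around it held 1 copy of CACGTG and 2 of ACGTGG, words that can overlap and that were found at none of the 7 upstream summits. No share of all summits inside genes with these words stands beside this single window. ARR4 ranked 533 of 4752 genes by its upstream score. ARR3 (AT1G59940, chr1:22065617-22067233, minus strand) had none, and the closest summit, with a score of 3.34, lay 6522 bp away. Their coding sequences, 972 bp in ARR3 and 780 bp in ARR4, were 83.2% identical over the aligned bases.

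ARR5 and ARR6 had no upstream summit. In ARR6 (AT5G62920, chr5:25252007-25254318, minus strand) a summit at 25253242 scored 9.12, below the list's median of 10.1, and was the only summit of the family that lay in an intron of every transcript, 1076 bp from the TSS. Its sequence, chr5:25253192-25253292 on the minus strand, is given because it is the only one inside a transcribed region shown here.
ARR6 intron: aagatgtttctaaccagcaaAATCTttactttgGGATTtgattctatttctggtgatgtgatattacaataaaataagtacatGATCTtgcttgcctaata

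This window, which is not in a promoter, had 1 copy of each of the 3 type-B words. No share of all summits inside genes with these words stands beside it. At ARR5 (AT3G48100, chr3:17758427-17760950, minus strand) the 3 summits of a single peak lay beyond the 3′ end. The first, 458 bp past the end, scored 6.19, and those at 99 and 95 bp scored 2.35 each, close to the lowest score of the list. The downstream neighbour EDS1 (AT3G48090, chr3:17755329-17758147, minus strand), a lipase-like protein of plant immunity, begins 279 bp from ARR5. The higher summit lies inside EDS1, 178 bp from its TSS, and the others lie 181 and 185 bp upstream of EDS1. The whole 3′ signal of ARR5 thus falls in windows of EDS1. When each summit was given only to the protein-coding gene with the nearest TSS, ARR5 had none.

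ARR16 and ARR17 had 1 summit each, in different windows. In ARR16 (AT2G40670, chr2:16969673-16972113, plus strand) it stood at 16969777, scored 12.6 and lay 104 bp from the TSS, in the 5′ UTR of 1 transcript and 77 bp upstream of the start of the other. In ARR17 (AT3G56380, chr3:20905264-20906397, plus strand) it scored 6.79 and stood 968 bp upstream, just inside the 1 kb window, but 1139 bp upstream of the other annotated transcript. It ranked 3515 of 4752 genes, with 26% of them lower, and was the lowest upstream score of the family. Further summits, at 1721 bp (score 7.41) and 2130 bp (11.3), are also within 1 kb upstream of the neighbour AT3G56370. Whether ARR16 and ARR17 count as having an upstream summit thus depends on where transcription is taken to start. By the starts of single transcripts, both, 1 or neither of them can have it, and the count of pairs moves accordingly. With the ends of the coding sequence in place of the ends of the gene, ARR16 had an upstream summit, at 481 bp, and ARR17 had none.

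**Figure D2:**
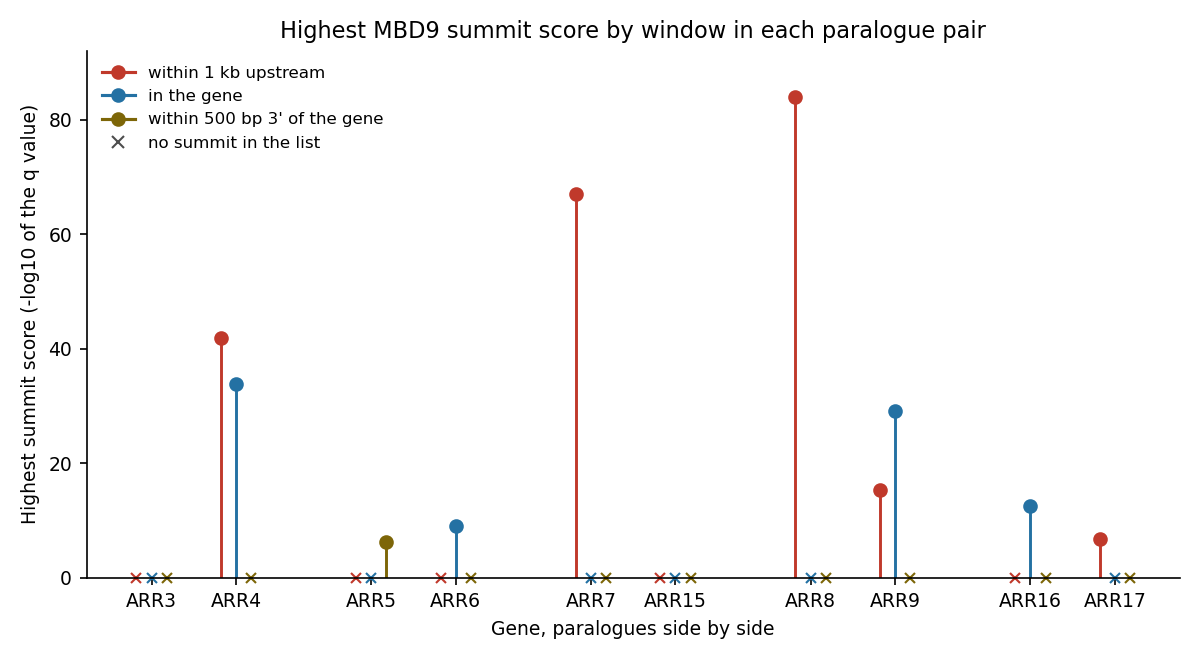
Highest score (y axis, −log10 of the q value) in each window of the 10 type-A genes (x axis, paralogues side by side); crosses on the axis mark windows without a summit in the list. ARR8, ARR7 and ARR4 reach 83.9, 67.0 and 41.8 upstream, whereas ARR3 and ARR15 have crosses in all 3 windows.

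The pairs were taken as the family's known duplicates, and in each of them the partner was the closest member by coding sequence. Identity within the pairs was 83.2% for ARR3 and ARR4, 81.4% for ARR5 and ARR6, 79.0% for ARR7 and ARR15, 81.3% for ARR8 and ARR9 and 84.2% for ARR16 and ARR17, and no gene exceeded 76.2% with any other member. The longest identical run between the 1 kb upstream sequences of a pair was 16 bp, for ARR3 and ARR4, and it was 11 to 13 bp in the other pairs. Of the 50-base stretches in the 3 windows, 100% occurred once in the nuclear genome for 9 of the genes and 97.2% for ARR8. At ARR3 and ARR15, the genes without a summit, every such stretch was thus found a single time as an exact match. Stretches that differ by a few bases were not counted, and whether reads could be placed there under the authors' settings was not tested.

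Over all 3 windows, 8 of the 10 type-A genes had a summit, compared with 30.1% of protein-coding genes. Summits in the gene were present at 4 (ARR4, ARR6, ARR9 and ARR16), compared with 13.6%. With coding sequence ends in place of gene ends, 1 member (ARR6) had a summit in the gene, since the others lie in UTRs or in front of the coding sequence. The share of all genes at that setting is not given here. Within 500 bp of the 3′ end there was a summit at 1 member (ARR5), compared with 7.76%, a share near that of all genes. An upstream summit with a score of at least 10 was found at 4 members and at 10.2% of all genes, and a score of at least 50 at 2 members, ARR7 and ARR8, and at 1.36% of all genes. At 3 members (ARR4, ARR5 and ARR9) there were 3 or more summits in the windows, compared with 5.21% of genes. At each of these members some of the summits share a peak, and counted by peak none of them reaches 3. At ARR5 all the summits are of a single peak and also fall in windows of EDS1. The share of all genes counted by peak is not given here. All the counts above are of 10 genes in a single list, with no replicate error. In total the windows held 16 summits in 10 peaks, 7 of them upstream, 6 in genes and 3 beyond a 3′ end.

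The upstream summits of the family lay at a median of 539 bp from the TSS (91 to 968 bp, n = 7), compared with 335 bp for the 5739 pairs of an upstream summit and a protein-coding gene. Their median score was 15.6, compared with 11.3. The best upstream score per gene had a median of 41.8 over the 5 members with an upstream summit (6.79 to 83.9), compared with 12.6 over the 4752 genes. The members thus spread over most of the range of those genes, as the plot of upstream scores shows. Inside genes, 0 of the 6 member summits lay in a coding exon, 4 lay in a 5′ UTR of at least 1 transcript, 1 in a 3′ UTR and 1 in an intron. Over all protein-coding genes, coding exons held 41.5%, 5′ UTRs 29.1%, 3′ UTRs 15.8% and introns 13.4% of summits inside genes. Gene length had a median of 2342 bp in the family and of 2078 bp over all protein-coding genes.

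**Figure D3:**
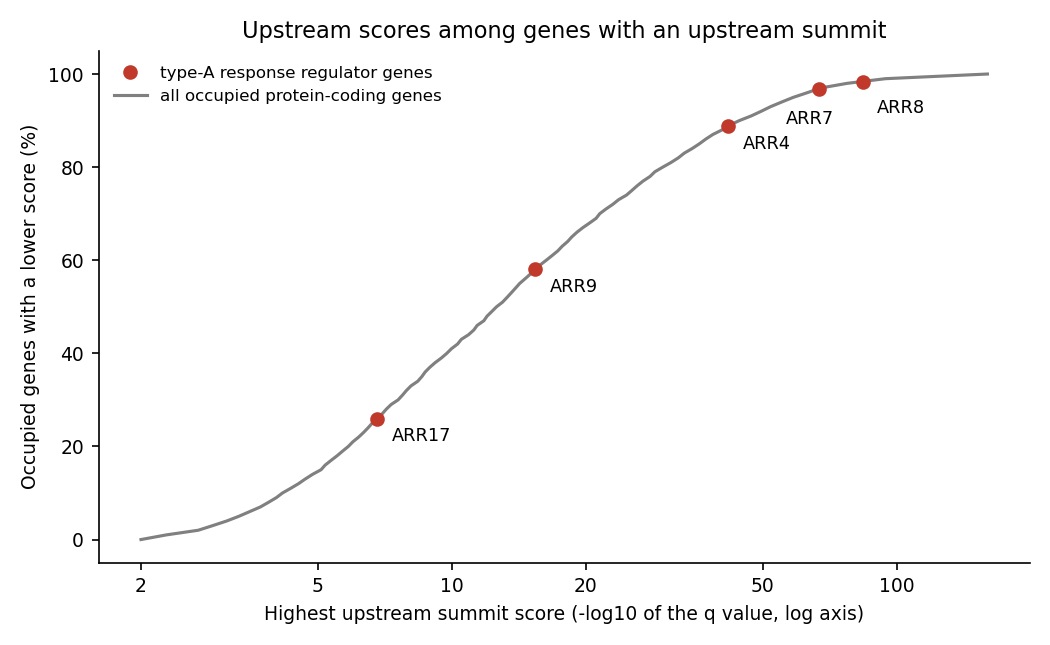
Highest upstream summit score (x axis, −log10 of the q value, log scale) and the percentage of the 4752 protein-coding genes with an upstream summit that score lower (y axis). Red points are the 5 type-A genes with an upstream summit and the grey line is all such genes; ARR8 and ARR7 stand near the top (98.3% and 96.8% lower) and ARR17 in the lower part (26%).

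By the annotated ends of the genes, the space in front of them moved with the upstream summits. The upstream protein-coding neighbour was 2183 to 5547 bp away at the 5 members with an upstream summit and 502 to 2019 bp away at the 5 without, so the ranges did not overlap. This pattern, and the cut at 2 kb, were chosen after the values were seen. The pattern rests in part on ARR17 (2183 bp) and ARR16 (553 bp), whose upstream calls depend on where transcription is taken to start. With coding sequence ends, ARR16 had an upstream summit and ARR17 had none, and by the same distances the ranges would then overlap. With the neighbour over 2 kb away, 5 of 6 members had an upstream summit, the exception being ARR5, compared with 19.5% of 8077 protein-coding genes. With the neighbour under 1 kb away, 0 of 4 members (ARR3, ARR6, ARR15 and ARR16) had one, compared with 15.3% of 14126 genes, and no member fell between 1 and 2 kb, where the share was 19.3%. Over all genes the shares thus differed by a few percentage points only, and the part of the upstream space in the pattern among the members was not tested.

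The other genes of the pathway were taken from a list of 55 receptors, phosphotransfer proteins, other response regulators, cytokinin response factors and enzymes of cytokinin metabolism. Together, 10 of these 55 (18.2%) had an upstream summit, a share near the 17.3% of all protein-coding genes, and 22 (40%) had a summit in any window, against 30.1%. The type-A genes, 5 of 10 upstream, thus stood between most of the pathway and the cytokinin response factors. These factors, the AP2/ERF proteins CRF1 to CRF6, had an upstream summit at 6 of 6 genes. Their best upstream scores were 18.8 for CRF1, 11.9 for CRF2, 40.9 for CRF3, 55.8 for CRF4, 21.1 for CRF5 and 36.0 for CRF6, 177 to 737 bp from the TSS, all below those of ARR8 and ARR7.

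Earlier in the signalling chain, 0 of 3 receptor genes, 0 of 6 phosphotransfer genes and 1 of 11 type-B genes had an upstream summit, counts too small to set apart from the 17.3% of all protein-coding genes. In any window, 2 of the 3 receptor genes had a summit, against 30.1%. The receptor gene AHK4 (named WOL in RefSeq) had a summit inside the gene with a score of 81.9, 741 bp from the TSS, close to the score of ARR8, and AHK3 had its only summit 3′ of the gene (16.0). Of the 6 phosphotransfer genes, AHP4 alone had a summit, in the gene, with a score of 9.33. Of the 11 type-B genes, whose proteins activate the type-A genes, ARR1 alone had an upstream summit, with a score of 3.56 at 246 bp, and the highest score of the class was 10.5, beyond the 3′ end of ARR18. The 2 type-C genes had no summit in any window.

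Among the enzymes, 0 of 11 synthesis genes, 1 of 9 LOG genes and 2 of 7 CKX genes had an upstream summit. These counts are too small to set apart from the 17.3% of all protein-coding genes. IPT5, which encodes an isopentenyltransferase that starts cytokinin synthesis, had the only summit of the synthesis class, in the gene (39.7). Of the 9 LOG genes, whose enzymes release the active free base, LOG4 had an upstream summit (8.58 at 116 bp), whereas 5 (55.6%, against 13.6% of all protein-coding genes) had summits in the gene, with the highest score of 72.1 at LOG8. Of the 7 CKX genes, which encode the oxidases that break cytokinin down, CKX5 (20.7 at 672 bp) and CKX6 (7.67 at 102 bp) had upstream summits, and CKX5 also had a summit of 80.9 in the gene. The summits of AHK4, CKX5 and LOG8 inside genes thus scored between those upstream of ARR8 and ARR7. Upstream, the highest score among the 55 genes was the 55.8 of CRF4.

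**Figure D4:**
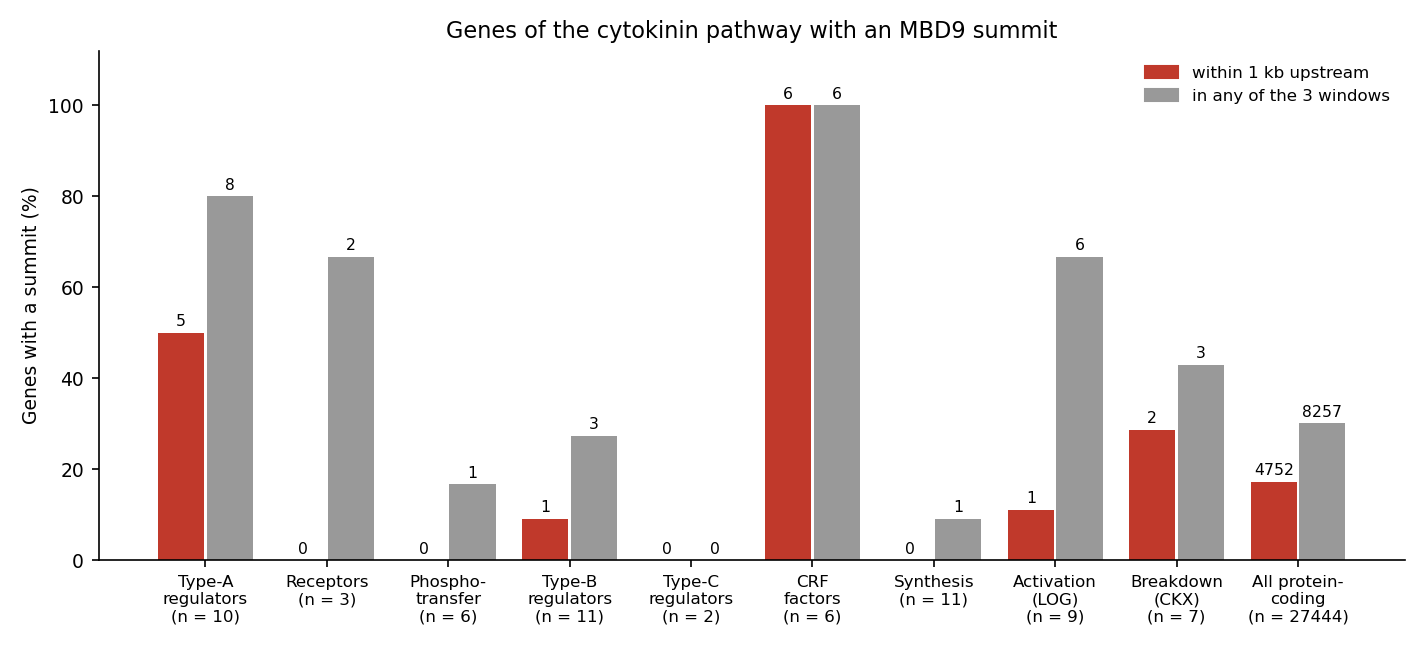
Percentage of genes (y axis) in each class of the cytokinin pathway (x axis, number of genes in brackets) and of all protein-coding genes with an MBD9 summit within 1 kb upstream (red) or in any of the 3 windows (grey); the number above each bar is the count of genes. The type-A genes stand at 5 and 8 of 10, the CRF factors at 6 of 6 for both, and all protein-coding genes at 17.3% and 30.1%.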

How the data were processed

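FLAG ChIP-seq was carried out on MBD9-3xFLAG *mbd9-3* and on untagged wild-type Col-0 plants, 1 library each. The authors mapped the reads to TAIR10 without organelle genomes using Bowtie, retained reads with a unique position and dropped duplicates with SAMtools (versions not given in the sources used here). Peaks were called with MACS2 (2.1.1 in the submitters' processing notes) with the wild-type library as control, a q value threshold of 0.01 and an extension size setting of 200 bp. The deposited score is −log10 of the q value as the authors' caller wrote it. Peak widths and read numbers were not used here, so the depth is unknown, and the wild-type profile itself was not analysed here.

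Summit positions were made 1-based and placed against genes of the RefSeq annotation of TAIR10.1, whose TSS can differ from that used by the authors. All summits lay within its chromosome lengths. A summit counted for every gene whose window held it. All member summits are named. Other pathway genes are named if they had an upstream summit or their class's highest score, and neighbours if they share a member's summit. AHK3 and AT3G56370 fall outside this rule and were named after their values were seen. The members and gene lists were chosen with earlier results of these data known. All 55 pathway names were matched to RefSeq names. Coding sequences (the longest of each gene) were aligned globally with Biopython (1.88), and identity was taken over aligned bases. Words were counted within 50 bp of a summit on both strands, and stretches of 50 bases were called unique where the nuclear chromosomes hold them a single time. Alternatives covered scores of at least 10, upstream windows of 500 bp and 2 kb, 3′ windows of 250 bp and 1 kb, 1 summit per peak, summits extended by 100 bp, the nearest TSS only, coding sequence ends in place of gene ends, and 25 or 100 bp around summits for words. The nearest TSS was taken among protein-coding genes, so the lncRNA genes at ARR9 took none of its summits. Placement was tested on simulated data with planted positions. Python 3.11.15, NumPy 2.4.6 and Matplotlib 3.10.9 were used.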

Additional observations from a re-analysis of the deposited data

How the results depend on the processing

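Of 69 values recomputed under the alternatives, 58 stayed within 1.5 times the value reported and 11 did not. An upstream window of 500 bp left 3 members with an upstream summit (ARR4, ARR7 and ARR9, beside 12.4% of all protein-coding genes) and 0 pairs with one at both genes, since the ARR8 summit lies 539 bp out. A score of at least 10 left 5 members with any summit and 0 with one 3′ of the gene. With 1 summit per peak the family had 10 summits. With coding sequence ends it also had 10, and 1 member (ARR6) had a summit in the gene. At that setting 5 members still had one upstream, with ARR16 in place of ARR17, beside 19.1% of all protein-coding genes. A 3′ window of 1 kb gave 2 members there, ARR5 and ARR8. The counts in the gene, 3′ of it and in any window have no share of all genes at the changed setting beside them. Whether they moved more than all genes did was not tested. Within 100 bp of the 7 upstream summits, AGATT was at 5 (47.9% of all upstream summits) and AGATC at 2 (22.8%), and within 25 bp GGATT was at 1 (8.61%). The highest score was 83.9 under all alternatives run on it. No paired analysis was possible because there was 1 library per group and the values come from no test.

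Counts of 10 genes from a single list of unknown depth limit all comparisons here. Scores have no replicate error, absence from the list is not absence of binding, and the 5′ ends of ARR4, ARR9, ARR16 and ARR17 differ between annotated transcripts, which moves summits between windows.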
